A study of Mus musculus with 16 samples.

Results

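The 10 macrophage genes C1qa, C1qb, C1qc, Csf1r, Adgre1, Mrc1, Tyrobp, Cd68, Ctss and Lyz2 were followed through mouse pancreas and islets with and without deletion of Tff2, which encodes a small peptide of mucus, trefoil factor 2. They were taken as a fixed list by gene symbol, and all 10 were found among the 24091 genes of both count tables and passed the low-count filter in every comparison. The fetal samples were whole pancreas at embryonic day 16.5 (E16.5), from 3 controls (Tff2fl/fl) and 3 knockouts (KO, Pdx1:Cre;Tff2fl/fl), with the spleen removed at dissection. Islets came from male mice aged 60 weeks, 5 controls (Tff2fl/fl) and 5 KO animals (Pdx1:Cre;Tff2fl/fl). They had been released with collagenase V, separated on a density gradient and picked by hand. The controls thus carry the floxed alleles and no Cre, and no group with Cre alone is among the 16 libraries. The Pdx1 promoter that drives Cre is active in the early pancreatic epithelium and in beta cells, and macrophages are not among the cells it targets.

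Tissue macrophages are phagocytes that settle in organs before birth and are later replaced, to an extent that differs between organs, by cells descended from blood monocytes. They depend on signalling through Csf1r, the receptor for the growth factors Csf1 and Il34, and they make the chains of complement C1q, the recognition molecule of the classical complement pathway. In the islet, resident macrophages lie against the vessels and the endocrine cells and present antigen. In a whole-tissue RNA sample, fewer macrophages and less RNA of a gene per macrophage cannot be told apart.

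The libraries held 14866194 to 22699934 reads in pancreata and 22595400 to 32385042 in islets, and levels are given as CPM, counts scaled to library size with TMM factors. The 10 genes together took 8474 to 12655 reads in a pancreas and 3746 to 6530 in an islet library. Tff2 itself was at 22.7 to 38.7 CPM in control and 1.60 to 9.96 CPM in KO pancreata, with the highest KO value in KO 18. In islets it was at 0.977 to 4.70 CPM in controls and 0 to 0.478 CPM in KO animals. KO 18 was the male among the pancreata, with Ddx3y at 134 CPM and Xist at 1.56 CPM, whereas the other 5 had Ddx3y at 0 to 0.173 CPM. The summed level of 8 islet hormone genes was 2205 to 2955 CPM in control and 815 to 1364 CPM in KO pancreata, and that of 15 pan-epithelial genes 2440.3 to 2818 and 1960.0 to 2072 CPM. In islets the hormone sum was 143269 to 179330 CPM, with 106 to 1480.5 CPM from 8 acinar genes.

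The genes for the C1q chains lie side by side on chromosome 4 (mm10, minus strand), C1qb from 136880145 to 136886177, C1qc from 136889802 to 136892914 and C1qa from 136895916 to 136898844. Lyz2, the gene of lysozyme M in granules of macrophages, monocytes and neutrophils, lies on chromosome 10 from 117277541 to 117282272 (minus strand). Mrc1, the mannose receptor CD206 by which macrophages take up glycoproteins, lies on chromosome 2 from 14229414 to 14332023 (plus strand). In the GENCODE annotation Mrc1 contains the microRNA gene Mir511.

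The 250 bases upstream of the start site are shown for the C1q genes found in the promoter table, whose levels moved together, and for Lyz2 and Mrc1, the genes with the lowest p between KO and control in pancreas and in islets. They are from RefSeq (GRCm38.p6) and run 5′ to 3′ on the strand of the gene. Capitals mark GAGGAA and AGGAAGT on either strand, cores of sites that the ETS factor PU.1 (gene Spi1) can bind. The windows are chr4:136886201-136886450, chr4:136892915-136893164, chr10:117282273-117282522 and chr2:14229164-14229413 in the order printed.
C1qb: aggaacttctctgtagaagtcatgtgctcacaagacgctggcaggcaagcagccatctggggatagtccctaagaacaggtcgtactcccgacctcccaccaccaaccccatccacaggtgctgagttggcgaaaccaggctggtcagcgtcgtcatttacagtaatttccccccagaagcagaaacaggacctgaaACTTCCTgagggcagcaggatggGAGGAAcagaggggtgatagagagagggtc
C1qc: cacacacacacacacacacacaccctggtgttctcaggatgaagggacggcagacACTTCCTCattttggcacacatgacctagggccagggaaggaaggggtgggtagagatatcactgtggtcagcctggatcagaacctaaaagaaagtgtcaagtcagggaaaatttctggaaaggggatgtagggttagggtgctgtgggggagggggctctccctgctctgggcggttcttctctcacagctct
Lyz2: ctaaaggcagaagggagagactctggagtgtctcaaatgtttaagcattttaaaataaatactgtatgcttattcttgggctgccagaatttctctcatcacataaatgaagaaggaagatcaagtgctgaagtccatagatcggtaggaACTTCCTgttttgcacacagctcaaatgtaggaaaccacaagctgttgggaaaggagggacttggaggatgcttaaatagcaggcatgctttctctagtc
Mrc1: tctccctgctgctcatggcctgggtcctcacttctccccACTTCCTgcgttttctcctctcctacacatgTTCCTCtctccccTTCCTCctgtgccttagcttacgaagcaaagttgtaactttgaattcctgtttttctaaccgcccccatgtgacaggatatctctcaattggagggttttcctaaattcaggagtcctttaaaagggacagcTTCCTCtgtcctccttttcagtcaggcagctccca
C1qb, C1qc and Lyz2 are on the minus strand, and Mrc1 is on the plus strand.

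Promoter windows of 300 bases were found for 6 of the 10 genes, C1qb, C1qc, Lyz2, Cd68, Ctss and Mrc1. GAGGAA was present in 5 of them, AGGAAGT in 5 and at least 1 of the pair in 6, and the motifs can overlap, as in C1qc. Among 32851 promoters of the same length, 28.3% held GAGGAA, 9.35% held AGGAAGT and 32.7% held either. TGACTCA, an AP-1 site, was in 1 of the 6 (Cd68; 5.20% of all promoters) and CACGTG, an E-box, was in 0 of the 6 (7.15% of all promoters). These are matches of letters on either strand and give no measure of binding.

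Lyz2 has a close copy, Lyz1, the lysozyme of Paneth cells, and the division of reads between them depends on the few bases that differ. Over 447 coding bases the sequences differed at 22, an identity of 95.08%, and 80 of 398 windows of 50 bases (20.1%) were shared without a difference. The coding bases 61 to 120 hold 9 differences, and no other 60-base window holds more. They are shown from the GENCODE transcripts with the differing bases in capitals.
Lyz2: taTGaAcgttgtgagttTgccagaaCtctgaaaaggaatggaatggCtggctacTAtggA
Lyz1: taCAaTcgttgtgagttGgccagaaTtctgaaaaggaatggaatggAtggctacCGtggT
Lyz1 had 1 to 4 reads in each pancreas, against 828 to 2014 reads of Lyz2. Few reads at E16.5 were thus counted to the copy, and how reads that match both were assigned is not stated.

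In the pancreata at E16.5, Lyz2 was the only one of the 10 genes that passed the test between KO and control. Its level was 58.1, 46.4 and 59.5 CPM in control 02, 08 and 13, and 68.5, 129 and 120 CPM in KO 01, 18 and 19. All KO pancreata were above all controls, and KO 01 was close to them. Lyz2 rose from 54.6 ± 7.20 CPM (SD, n = 3) to 106 ± 32.6 CPM (SD, n = 3), 0.95 higher on the log2 scale (SE 0.22), and the edgeR quasi-likelihood test gave an adjusted p of 0.0461. At an adjusted p under 0.05, 1 of 10 was called, against 6.43% of the 14914 genes tested (3.75% higher and 2.68% lower), so the count is near the background. At an unadjusted p under 0.05 there was also 1 of 10, against 25.4%. Groups did not overlap for 1 of 10, against 31.1% of the genes tested, 15.0% with KO higher and 16.1% with KO lower.

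**Figure D1:**
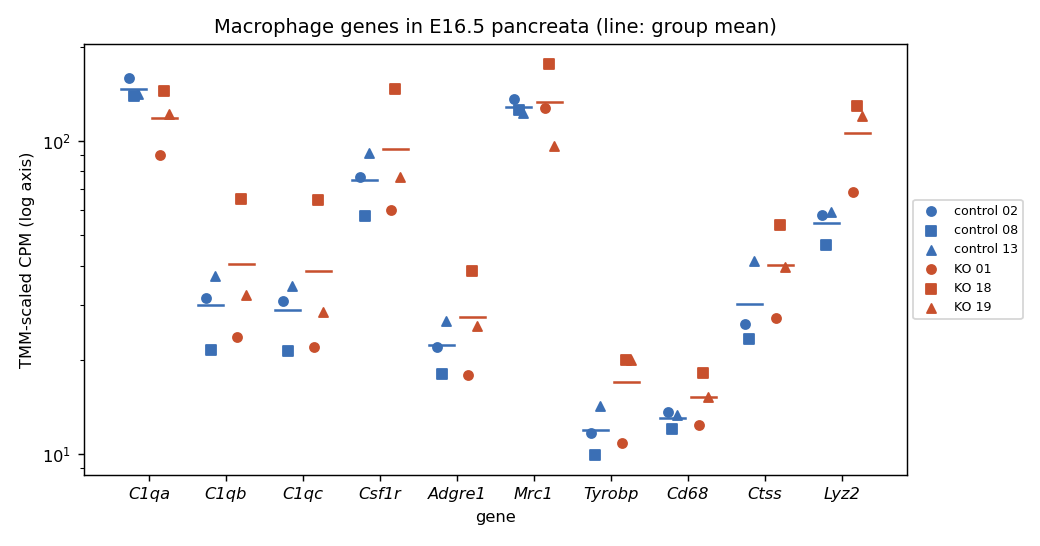
Levels of the 10 macrophage genes in each E16.5 pancreas, as TMM-scaled CPM on a log axis, with controls in blue, KO in red and a line at each group mean (n = 3). Lyz2 is the gene whose groups do not overlap, and KO 18 (red squares) is highest for 9 of the 10 genes.

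The Lyz2 call lay near the threshold and did not hold in every setting. Over 17 alternatives its log2 fold change stayed above 0, from 0.78 to 1.33, and its adjusted p ran from 0.00172 to 0.406, passing in 9. It was 0.0893 with a robust edgeR fit, 0.0807 with sex as a covariate, 0.0800 without KO 18 and 0.0993 without KO 19. Since KO 18 was the only male, the sex covariate nearly repeats the fit without KO 18 (log2 fold change 0.781 in both) and is not a separate check. Without control 02, 08 or 13 it was 0.173, 0.157 and 0.101, and in those fits 0, 4 and 0 genes of the whole table were called.

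Levels of neutrophil genes are given beside Lyz2, since neutrophils also make lysozyme M. Of 12 listed neutrophil and granulocyte precursor genes, 11 were tested and all 11 had a log2 fold change above 0 (median 1.64, against -0.0012 over all genes tested). With edgeR 9 of the 11 had an unadjusted p under 0.05, against 25.4% of all genes. Groups did not overlap for 7 of the 11, against 31.1% of all genes. At the adjusted threshold 1, Camp, passed (2.69, edgeR adjusted p = 0.0250; 3.75% of all genes were called higher), on 6 to 9 reads in each control. With so few control reads Camp passed the low-count filter only through the KO pancreata, so it was bound to be higher there. The counts and the median of the 11 genes include it, and the filter in part set them. The summed level of the 12 genes was 37.9, 28.8 and 50.3 CPM in control 02, 08 and 13, and 95.0, 57.9 and 243 CPM in KO 01, 18 and 19. The order of the KO pancreata differed from that of Lyz2, since KO 18 had the highest Lyz2 and the lowest neutrophil sum of the 3. None of the 12 was at 0 in a whole group, and Ngp, a granule protein gene of neutrophils, had 77 to 101 reads in controls and 92 to 561 in KO pancreata. With the summed neutrophil level as a covariate, an alternative chosen after these values were seen, Lyz2 had a log2 fold change of 0.89 and an adjusted p of 0.406. That edgeR fit called 0 genes of the whole table, with 1735 at an unadjusted p under 0.05. All KO sums were above all control sums, so this covariate goes with genotype and the fit cannot separate them. The part of neutrophils in the Lyz2 difference was not tested.

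Other markers also differed between the pancreata. Of 5 tested monocyte genes 1 rose, Ccr2, the receptor that guides monocytes out of bone marrow, against 3.75% of all genes called higher. Its log2 difference was 0.96 (edgeR adjusted p = 0.0496), and the call held in 7 of 17 alternatives, with an adjusted p of 0.0501 under RLE size factors and 0.0839 with sex as a covariate. Ccr2 was at 14.0, 11.8 and 21.4 CPM in the controls and 23.7, 32.3 and 35.7 CPM in KO 01, 18 and 19. The sum of 8 liver and Kupffer cell genes was 388 to 514 CPM in controls and 1523, 305 and 388 CPM in KO 01, 18 and 19. The sum of 6 erythroid genes was 1452 to 1838 CPM in controls and 1951, 2857 and 1439 CPM in the same KO pancreata. All 8 endothelial genes were below 0 (median -0.43) and 2 of them fell, against 2.68% of all genes called lower. With edgeR 5 of the 8 had an unadjusted p under 0.05, against 25.4% of all genes. The endothelial sum was 830 to 1059 CPM in controls and 640 to 835 CPM in KO pancreata. All 8 acinar genes were below 0 (median -0.51) and 0 passed with edgeR (4 at an unadjusted p under 0.05, against the same 25.4%). The acinar sum was 58690 to 69808 CPM in controls and 28597 to 53643 CPM in KO pancreata. The part of these markers in the levels of the 10 genes was not tested.

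**Figure D2:**
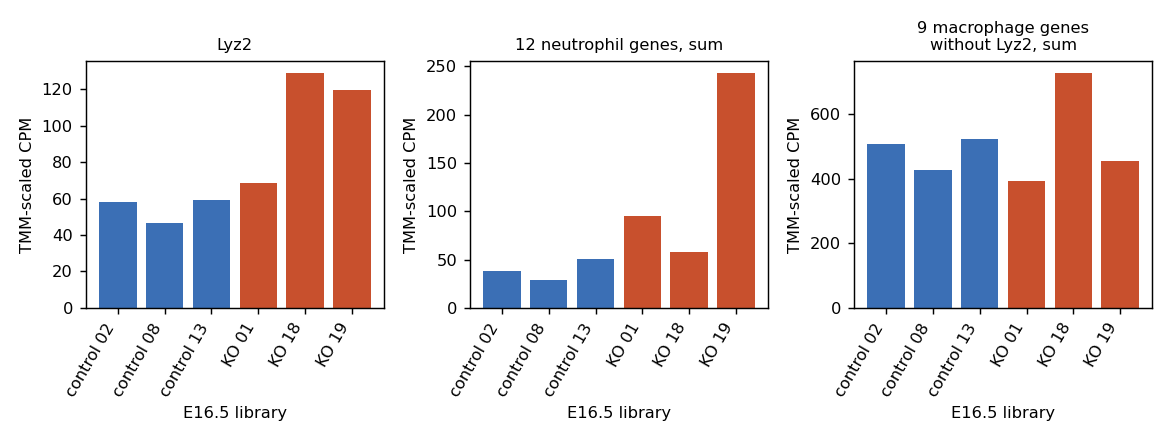
Lyz2, the sum of 12 neutrophil genes and the sum of the other 9 macrophage genes in each E16.5 pancreas, as TMM-scaled CPM with bars from 0, controls in blue and KO in red. Lyz2 is highest in KO 18 at 129 CPM, while the neutrophil sum is highest in KO 19 at 243 CPM.

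Lyz2 was also set against the other 9 genes in the same library, a measure chosen after the values were seen. On the log2 scale Lyz2 stood above their mean by 0.63, 0.60 and 0.50 in control 02, 08 and 13, and by 1.16, 1.08 and 1.59 in KO 01, 18 and 19. The groups did not overlap in this ratio, KO 01 included. In islets the same ratio was 0.55 to 0.91 in controls and 0.50 to 1.64 in KO animals, and overlapped.

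The 9 other genes overlapped between KO and control pancreata, with edgeR adjusted p from 0.242 to 0.875. C1qb was at 31.5, 21.6 and 37.0 CPM in control 02, 08 and 13 and at 23.7, 65.2 and 32.3 CPM in KO 01, 18 and 19. C1qc, the chain encoded beside it, was at 30.7, 21.3 and 34.3 CPM in the controls and 21.9, 64.8 and 28.4 CPM in the KO pancreata. For both, KO 18 was far above the rest and the other 2 KO pancreata lay inside the control range. The log2 fold changes were 0.42 (SE 0.35) for C1qb and 0.40 (SE 0.38) for C1qc.

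C1qa, the third chain of C1q, was the one gene of the 10 with a log2 fold change below 0. It was at 159, 139 and 142 CPM in the controls and at 89.9, 144 and 122 CPM in KO 01, 18 and 19. KO 18 lay within the control range and the other KO pancreata lay below it. On the log2 scale the difference was -0.31 (SE 0.15; edgeR adjusted p = 0.255).

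The genes of surface receptors followed the same libraries. Adgre1, known as F4/80, lies on chromosome 17 from 57358686 to 57483529, Csf1r on chromosome 18 from 61105572 to 61131139, Ctss on chromosome 3 from 95526786 to 95556405 and Tyrobp on chromosome 7 from 30413788 to 30417579, each on the plus strand. Cd68 lies on chromosome 11 from 69664213 to 69666170 on the minus strand. In the GENCODE annotation Csf1r overlaps Hmgxb3 on the opposite strand, and without known strandedness of the counting their reads cannot be told apart. Csf1r was at 77.0, 57.5 and 91.3 CPM in control 02, 08 and 13 and at 60.2, 146 and 76.9 CPM in KO 01, 18 and 19 (log2 fold change 0.32, SE 0.31). Adgre1 was at 22.0, 18.0 and 26.6 CPM in the controls and 17.9, 38.5 and 25.6 CPM in the KO pancreata (0.29, SE 0.26). Mrc1 was at 136, 126 and 123 CPM and at 128, 177 and 96.5 CPM (0.06, SE 0.19). In all 3 KO 18 was highest and at least 1 other KO pancreas was within or below the control range.

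Tyrobp encodes the adaptor DAP12, through which Trem2 and other receptors signal. It was at 11.7, 9.91 and 14.3 CPM in control 02, 08 and 13 and at 10.9, 20.0 and 20.0 CPM in KO 01, 18 and 19. KO 18 and 19 were above all controls and KO 01 was within their range, and the log2 difference was 0.50 (SE 0.24; edgeR adjusted p = 0.242). Without KO 01 it was 0.75 with an adjusted p of 0.0209, and Tyrobp then passed beside Lyz2.

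The lysosomal genes overlapped between the groups as well. Cd68, a membrane protein of late endosomes and lysosomes, was at 13.6, 12.0 and 13.3 CPM in the controls and 12.3, 18.1 and 15.2 CPM in KO 01, 18 and 19 (0.22, SE 0.15). Ctss, the cysteine protease cathepsin S that trims the invariant chain of MHC class II, was at 26.0, 23.3 and 41.4 CPM and at 27.2, 54.1 and 39.5 CPM (0.41, SE 0.28). Control 13 was above KO 19 for Ctss, and KO 01 was within the control range for both genes.

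The summed level of the 10 genes shows how far these values rest on 1 library. It was 565, 475 and 582 CPM in control 02, 08 and 13 and 460, 857 and 576 CPM in KO 01, 18 and 19. Of the 10 genes, 9 had a log2 fold change above 0, with a median of 0.36. Without KO 18 the median was -0.07 and 4 were above 0, and C1qb, C1qc, Csf1r, Adgre1 and Mrc1 changed sign. The same 5 changed sign with sex as a covariate, a fit in which KO 18 is the only male. Sex and other properties of that embryo cannot be told apart.

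Scaling changed the count in 1 case. When libraries were scaled to 15 pan-epithelial genes, which were lower in KO pancreata, 4 of the 10 genes passed and all 10 were above 0 with a median of 0.74. That scaling moved the median of all genes by 0.38 and called 60.4% of them, with the median of the 10 genes moved by a like amount.

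**Figure D3:**
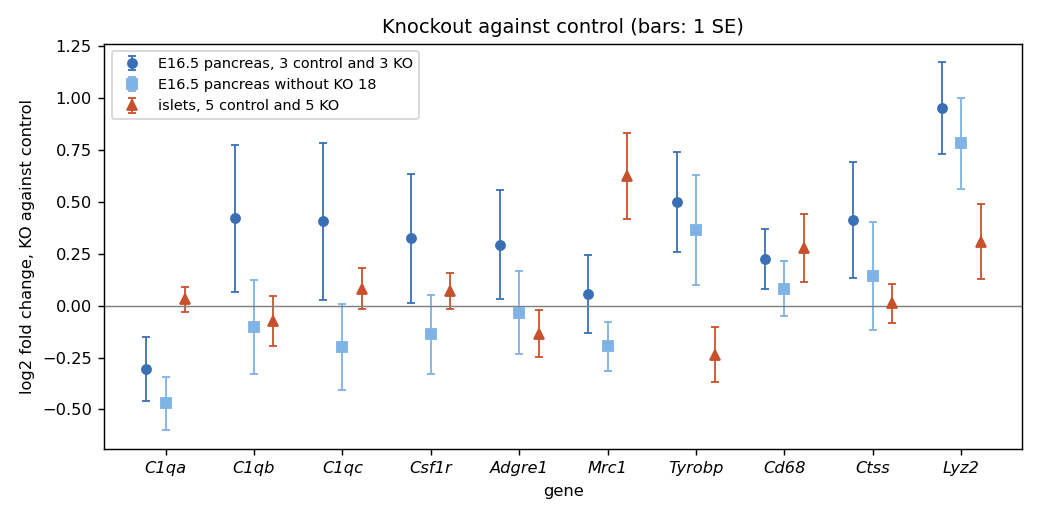
Log2 fold change of KO against control for each macrophage gene with bars of 1 SE, in E16.5 pancreata with all 6 libraries (dark circles), without KO 18 (light squares) and in islets (triangles). Lyz2 at E16.5 has the highest value, 0.95, and C1qb, C1qc, Csf1r, Adgre1 and Mrc1 pass from above 0 to below 0 when KO 18 is left out.

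Across the 6 pancreata the 10 genes differed in how closely they followed their common level. Pearson correlation of log2 CPM with the mean of the 10 was 0.39 for C1qa, 0.50 for Mrc1, 0.79 for Lyz2 and 0.87 to 0.99 for the other 7 (n = 6 libraries). Each gene is part of that mean, and the points share libraries, KO 18 among them. Among 13635 other genes, the 5 most alike were Numbl, Olfml2b, Col1a1, S100a6 and Serping1, at 0.991 to 0.996.

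The chains of C1q are assembled in equal number, and their genes were compared per kb of gene length, a comparison chosen after the values were seen. C1qb per kb was 0.998 to 1.13 times C1qc per kb in the pancreata and 1.08 to 1.46 times in islets. C1qa per kb stood well above both. The ratio of C1qa to C1qb was 4.94, 6.32 and 3.76 in control 02, 08 and 13, and 3.72, 2.18 and 3.70 in KO 01, 18 and 19. All KO values were below all control values, by a small margin for KO 01 and 19. In islets the ratio was 3.64 to 4.80 in controls and 3.76 to 5.12 in KO animals, which overlap.

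In islets at 60 weeks, 0 of the 10 genes passed between KO and control with edgeR, against 0.155% of the 14219 genes tested (0.113% higher and 0.0422% lower), and 1 had an unadjusted p under 0.05, against 7.18%. DESeq2 and limma-voom also called 0 of the 10, as did each of the other alternatives run. No gene of the 10 was free of overlap between the groups, against 1.55% of the genes tested (0.781% with KO higher and 0.774% with KO lower). The median log2 fold change was 0.05, and the summed level was 159 to 184 CPM in controls and 157 to 195 CPM in KO animals.

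Mrc1 had the lowest p in islets. Its level was 2.66, 1.78, 3.39, 2.82 and 2.61 CPM in control 052, 826, 829, 857 and 858, and 3.31, 3.74, 5.20, 2.86 and 5.39 CPM in KO 055, 122, 803, 812 and 845. In islets 3 KO animals lay above all controls, while control 829 was above KO 055 and KO 812. The means were 2.65 ± 0.58 CPM (SD, n = 5) and 4.10 ± 1.13 CPM (SD, n = 5), a log2 difference of 0.62 (SE 0.21). The edgeR adjusted p was 0.488. The counts behind it were 42 to 174 reads per library. Over 18 alternatives the fold change ran from 0.51 to 0.73 and the adjusted p from 0.251 to 0.771.

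Lyz2, the gene that passed at E16.5, overlapped in islets. It was at 17.7, 14.0, 16.5, 17.1 and 20.2 CPM in control 052, 826, 829, 857 and 858 and at 22.0, 16.1, 17.9, 16.8 and 33.2 CPM in KO 055, 122, 803, 812 and 845. KO 845 stood above the rest, and without it the log2 difference of 0.31 (SE 0.18; edgeR adjusted p = 0.784) was 0.09. The same library had 55 reads of Lyz1 (2.37 CPM), where the other islet libraries had 0 to 5.

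The remaining genes showed little difference between KO and control islets. C1qa was at 52.1 to 61.1 CPM (median 57.0) in controls and 52.0 to 62.7 CPM (median 60.5) in KO animals, with a log2 fold change of 0.03 (SE 0.06). Csf1r was at 15.4 to 18.1 CPM (median 17.7) and 15.1 to 21.4 CPM (median 17.8), with a log2 fold change of 0.07 (SE 0.09). Ctss, at 38.3 to 45.7 CPM (median 39.3) and 33.4 to 46.4 CPM (median 44.6), had a log2 fold change of 0.01 (SE 0.10). The other 5 lay between -0.24 (Tyrobp, SE 0.13) and 0.28 (Cd68, SE 0.16), with Adgre1 at -0.14, C1qb at -0.07 and C1qc at 0.08.

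**Figure D4:**
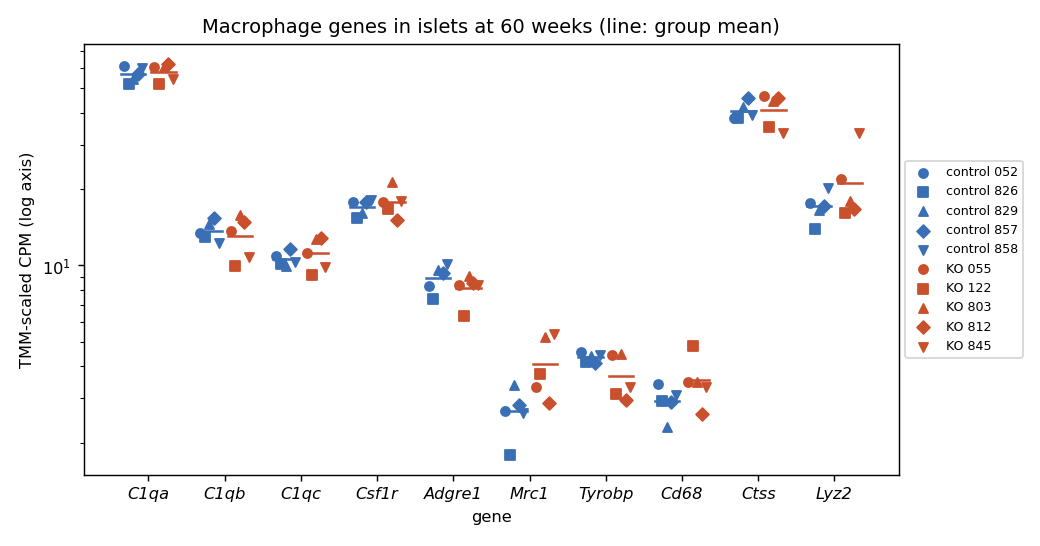
Levels of the 10 macrophage genes in each islet library, as TMM-scaled CPM on a log axis, with controls in blue, KO in red and a line at each group mean (n = 5). The groups overlap for all 10 genes, and Mrc1 spans 1.78 to 5.39 CPM.

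The spread over libraries differed by gene. The highest value of a gene was 1.20 (C1qa) to 3.02 (Mrc1) times its lowest over the 10 islet libraries, and 1.50 (Cd68) to 3.05 (C1qc) times over the 6 pancreata. Mrc1 and Cd68 spread more widely in islets (3.02 and 2.08 times) than in pancreata (1.83 and 1.50 times), and the other 8 genes less widely, with no test of the difference. Correlation with the mean of the 10 genes ran from 0.05 for Cd68 to 0.85 for Csf1r (n = 10 libraries). The 5 most alike of 12539 other genes were Gapdh, Bcar3, Lgals3bp, Cdc42ep4 and Rcn3, at 0.911 to 0.923.

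Whether the genotype effect differed between the tissues was tested as an interaction over all 16 libraries. With edgeR 0 of the 10 genes passed, against 7.19% of the 15823 genes tested (3.94% higher and 3.25% lower), and 2 had an unadjusted p under 0.05, against 22.1%. C1qa had an effect 0.35 higher in islets on the log2 scale (edgeR adjusted p = 0.204) and Tyrobp had an effect of -0.72 by the same measure (edgeR adjusted p = 0.127). For Lyz2 the difference was -0.63 (SE 0.31, edgeR adjusted p = 0.257) and for Mrc1 0.58 (SE 0.29, edgeR adjusted p = 0.262). Without KO 01 Tyrobp passed (edgeR adjusted p = 0.0189) and without KO 18 C1qa passed (edgeR adjusted p = 0.0365). The Lyz2 call at E16.5 and its absence in islets are therefore not shown to differ.

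Between the control groups, 9 of the 10 genes were lower in islets than in E16.5 pancreas and 1, Ctss, was higher. All 10 passed, against 85.9% of the genes tested (42.4% higher and 43.6% lower; 86.4% at an unadjusted p under 0.05), and all 10 also did in every one of the 23 alternatives. Mrc1 fell by 5.32 on the log2 scale (SE 0.21), the largest change of the 10, from 128 ± 6.83 CPM (SD, n = 3) to 2.65 ± 0.58 CPM (SD, n = 5), levels that were scaled within each tissue. Cd68 fell by 1.89, Csf1r by 1.88, Lyz2 by 1.41, Tyrobp by 1.20, C1qc by 1.18, C1qa by 1.10, Adgre1 by 1.05 and C1qb by 0.87, whereas Ctss rose by 0.70 (SE 0.20, edgeR adjusted p = 0.00382). Tissue, age, sex and preparation cannot be told apart in this comparison.

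The order of the genes per kb of length also differed between the tissues. In control pancreata C1qa was highest at 136 ± 9.96 CPM per kb (SD, n = 3), followed by Lyz2 at 51.9 ± 6.83. C1qb, C1qc, Mrc1, Ctss and Tyrobp came next at 28.4 to 21.3, and neighbours among them overlapped. Csf1r (13.7), Cd68 (10.5) and Adgre1 (6.89) were lowest. In control islets C1qa was again highest at 52.8 ± 3.53 CPM per kb (SD, n = 5) and Ctss was second at 30.2 ± 2.38. Mrc1 was last at 0.502 ± 0.109, below Cd68 at 2.36 ± 0.32, with no overlap between the libraries of neighbours at either end.

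Between the tissues, further macrophage gene lists differed in direction. Of all genes tested, 42.4% were called higher and 43.6% lower in control islets with edgeR. Of 10 tested resident and scavenger genes, 9 fell and 1 did not pass, with a median of -3.92. Of the 13 listed, 10 passed the low-count filter in pancreata alone but 5 in islets alone. Genes that entered only through the pancreas were bound to be lower in islets, so the filter in part set this count and median. Pf4, a chemokine gene of megakaryocytes and some fetal macrophages, was at -6.11, F13a1 at -5.42, Cd163 at -4.97 and Folr2 at -4.35, while Ms4a7 was at 0.24 (edgeR adjusted p = 0.213). Control islets held 0 to 18 reads of Pf4, 3 to 12 of Cd163, 2 to 6 of Folr2 and 32 to 102 of F13a1, so the sizes of the first 3 are rough. Of 19 lysosome and effector genes, 8 rose and 11 fell, with a median of -0.48, so this list was split between both directions, as all genes were. Of 7 MHC class II genes, 7 rose with a median of 3.74, led by H2-Eb1 at 4.44 and H2-Aa at 4.11, chains of the antigen-presenting complex, and with Cd74, the invariant chain, at 3.90. Their summed level was 21.4 to 29.7 CPM in control pancreata and 278 to 352 CPM in control islets. The genes named here were chosen after their values were seen, and MHC class II is also made by dendritic cells and B cells.

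Ratios within a library, chosen after the values were seen, set other genes against Adgre1, and the cells that each transcript came from are not known. Mrc1 per kb was 3.61 ± 0.724 times Adgre1 per kb in control pancreata (SD, n = 3) and 0.180 ± 0.0277 times in control islets (SD, n = 5). Ctss per kb was 3.20 ± 0.460 times Adgre1 and 11.0 ± 1.23 times, and Cd74 per kb was 1.14 ± 0.201 times and 35.4 ± 3.76 times. None of these ranges overlapped between the tissues. In KO islets the ratio of Mrc1 to Adgre1 was 0.309 ± 0.0815 (SD, n = 5), from 0.204 to 0.391, and overlapped the controls at 0.148 to 0.215.

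**Figure D5:**
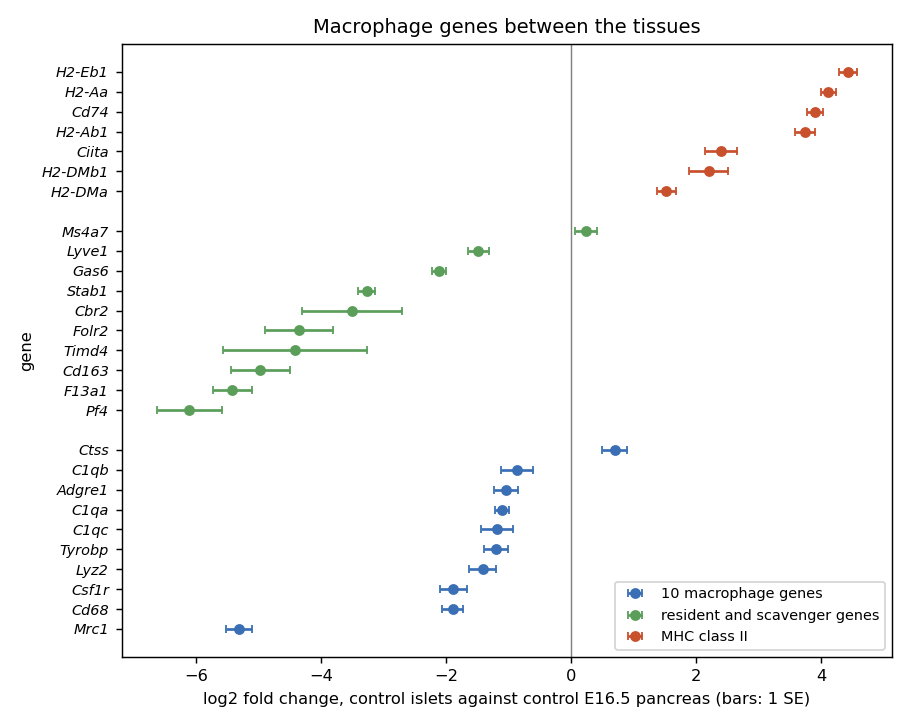
Log2 fold change of control islets (n = 5) against control E16.5 pancreas (n = 3) for the 10 macrophage genes (blue), 10 resident and scavenger genes (green) and 7 MHC class II genes (red), with bars of 1 SE. Mrc1 lies among the resident and scavenger genes at -5.32, and the 7 MHC class II genes lie between 1.52 and 4.44.

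The wider macrophage gene lists gave few calls between KO and control. Of 23 receptor, adaptor and transcription factor genes, 0 passed at E16.5 with edgeR (6 at an unadjusted p under 0.05, near the 25.4% of all genes; median 0.33). In islets 0 of them passed, against 0.155% of all genes (1 at an unadjusted p under 0.05, against 7.18%; median 0.03). Spi1, the gene of PU.1, had a log2 fold change of 0.62 at E16.5 (edgeR adjusted p = 0.216) and -0.06 in islets (edgeR adjusted p = 0.978). Fcer1g, an adaptor like Tyrobp, and Trem2, a receptor that signals through it, were at 0.44 and 0.43 at E16.5, with edgeR adjusted p of 0.373 and 0.455. Maf and Axl, the most abundant per kb in pancreas, were at 0.42 and -0.05, and Sirpa, the most abundant in islets, was at -0.05 there.

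Of 10 tested resident and scavenger genes, 0 passed at E16.5 with edgeR (1 at an unadjusted p under 0.05, against 25.4% of all genes). In islets 0 of 5 passed, against 0.155% of all genes (0 at an unadjusted p under 0.05, against 7.18%). Gas6, a bridge between dying cells and Axl, and Lyve1, a receptor for hyaluronan, were at 0.04 and 0.45 at E16.5. Of 19 lysosome and effector genes, 0 passed in either tissue with edgeR (6 at E16.5 and 0 in islets at an unadjusted p under 0.05, against 25.4% and 7.18% of all genes). Ctsd and Lamp1 were at -0.19 and 0.04 at E16.5, and Lamp1 and Cd63 at 0.02 and 0.05 in islets.

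Among the ligands, 2 of 9 tested genes fell at E16.5 and 0 rose, against 2.68% and 3.75% of all genes. Cx3cl1, the chemokine fractalkine whose receptor Cx3cr1 is carried by macrophages, was at 12.0, 12.7 and 13.5 CPM in the controls and 9.11, 7.86 and 8.92 CPM in KO 01, 18 and 19. On the log2 scale the difference was -0.55 (SE 0.11; edgeR adjusted p = 0.0329). Mif, a cytokine that holds macrophages in place, was at 41.7, 41.3 and 33.4 CPM and at 27.8, 29.1 and 26.4 CPM, a log2 difference of -0.49 (SE 0.10; edgeR adjusted p = 0.0344). Neither overlapped between groups, as for 16.1% of all genes with KO lower. The call held in 7 of 17 alternatives for Cx3cl1 and in 9 of 17 for Mif. With library totals the adjusted p was 0.0587 for Cx3cl1 and 0.0520 for Mif, and without KO 19 it was 0.0529 and 0.0726. Without KO 18 it was 0.0561 for Cx3cl1. Leaving out control 02, 08 or 13 gave 0.143, 0.119 and 0.0958 for Cx3cl1 and 0.163, 0.131 and 0.0665 for Mif. With pan-epithelial scaling they were at -0.18 and -0.10 with adjusted p of 0.270 and 0.383. The pan-epithelial genes fell in the same pancreata, by a median of 0.46 with 10 of 15 past the threshold, and their part in these values was not tested. In islets 0 of 7 ligands passed with edgeR (1 at an unadjusted p under 0.05), against 0.155% and 7.18% of all genes.

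Csf1 and Il34, the ligands of Csf1r, did not pass in either tissue. Csf1 was at 32.0 ± 3.98 and 35.8 ± 5.21 CPM (SD, n = 3) in control and KO pancreata and at 24.7 ± 2.11 and 22.1 ± 1.79 CPM (SD, n = 5) in control and KO islets. Il34 was at 4.98 ± 0.43 and 4.39 ± 0.56 CPM in pancreata and at 1.54 ± 0.18 and 1.73 ± 0.49 CPM in islets.

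Of 15 complement genes, 1 rose at E16.5 and 0 fell, a count near the 6.43% of all genes called. In islets 0 of 14 passed with edgeR, against 0.155% of all genes, and 1 had an unadjusted p under 0.05, near the 7.18% of all genes. The gene that rose was Lrp1, a large endocytic receptor that many cell types carry. It was at 314, 290 and 308 CPM in the controls and 352, 428 and 411 CPM in KO 01, 18 and 19, a log2 difference of 0.39 (SE 0.09; edgeR adjusted p = 0.0408). The groups did not overlap, as for 15.0% of all genes with KO higher. The call held in 10 of 17 alternatives. Without KO 18 the adjusted p of Lrp1 was 0.0675, without KO 19 it was 0.0877, and without control 02, 08 or 13 it was 0.163, 0.149 and 0.101.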

How the data were processed

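Poly(A) RNA of 16 animals was sequenced from Kapa mRNA HyperPrep libraries, per the labels' protocols. The authors made a table of unnormalized gene counts for pancreata and another for islets, both as deposited. Build mm10 and the tools HTSeq 0.11.1, STAR 2.6.0, Trimmomatic and edgeR are named, per the submitters' processing notes, without roles. Which annotation and strand setting served the counting was not stated.

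Counts were tested with edgeR 4.0.16 in R 4.3.3: TMM scaling, filterByExpr, quasi-likelihood F test, Benjamini-Hochberg adjustment over all genes tested and a threshold of 0.05. KO was compared with control within each tissue, from those libraries alone. The interaction and the comparison of control groups used all 16. The SE is the log2 fold change divided by the root of F. Levels are CPM with TMM factors set within a tissue, and per kb they are divided by the deposited gene length. Depth was 14866194 to 22699934 counts a library in pancreata and 22595400 to 32385042 in islets, which limits the genes with few reads most, and p-values measure the spread between animals as labelled. Replicates of a group differed beyond sampling noise (chi-square per degree of freedom at least 4.90 in pancreata and 6.28 in islets). The test was checked on simulated counts.

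The alternatives were other scalings, filters, DESeq2 1.42.0, limma 3.58.1 voom weights, a robust fit, each library left out and a sex covariate. The members and lists were chosen with earlier results of these data known. Besides the 10 genes, the text names, by rule, the genes of each macrophage list that passed (up to 5 a tissue) or otherwise its 2 most abundant per kb, and Tff2, Lyz1, Csf1, Il34, Spi1, Fcer1g and Trem2 whatever their values. A gene that the rule also names is not reported here. The neutrophil covariate, the ratios, Camp, Ccr2, Ngp, Lyz2 against the other 9 and the genes named between tissues were chosen after their values were seen.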

Additional observations from a re-analysis of the deposited data

Results flagged for a closer look

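In groups of 5 islet libraries, a library standing far from the other 4 was found in 4 of 42 groups of values checked, where chance alone gives about 1 in 20. Adgre1 was lowest in KO 122 at 6.32 CPM, with the other KO libraries at 8.40 to 9.09 CPM. Lyz1, the close copy of Lyz2, was highest in KO 845 at 2.37 CPM, with the others at 0 to 0.193 CPM, and that library also had the highest Lyz2 level of the islets. Among control islets Lyz1 was highest in control 858 at 0.158 CPM, with the others at 0 to 0.0425 CPM, a matter of single reads. Mif was highest in control 052 at 14.3 CPM, with the others at 11.8 to 12.5 CPM.

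The genotype effect differed between islets and E16.5 pancreas for 2 of 10 tested ligands, as tested by the interaction in edgeR. Both effects were higher in islets, against 3.94% of all genes called higher. In the same test 11 of 15 pan-epithelial genes (median 0.48), 6 of 8 islet hormone genes and 4 of 8 endothelial genes were also called higher. Pan-epithelial scaling was run at E16.5 alone and not for the interaction. The effect on Cx3cl1 was 0.66 higher in islets on the log2 scale (adjusted p = 0.0135; 0.0684 with limma-voom, the 1 of 23 alternatives in which it did not pass), and that on Mif was 0.61 higher (adjusted p = 0.00751; past the threshold in 23 of 23 alternatives).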

How the results depend on the processing

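At E16.5 the count of called genes among the 10 was 1. It was 0 with a robust edgeR fit, 0 with sex as a covariate, 0 with the summed neutrophil level as a covariate and 4 with pan-epithelial scaling, and it ran from 0 to 2 when each library was left out. For the interaction it ran from 0 to 1 when each library was left out. The count stayed at 0 in islets and at 10 between control groups in every alternative run. On the log2 scale, leaving out 1 library moved the E16.5 differences to -0.10 to 0.70 for C1qb, -0.20 to 0.69 for C1qc, -0.14 to 0.57 for Csf1r, -0.034 to 0.53 for Adgre1 and -0.20 to 0.25 for Mrc1, in each case with the low end without KO 18. With sex as a covariate these 5 were at -0.10, -0.20, -0.14, -0.034 and -0.20. With limma-voom, Mrc1 at E16.5 was at -0.027 and Ctss in islets at -0.020. With pan-epithelial scaling C1qa was at 0.077 and Il34 at 0.20. In islets, leaving out 1 library gave -0.037 to 0.076 for Ctss, -0.13 to 0.055 for Lrp1, -0.17 to 0.018 for Spi1, -0.16 to 0.0083 for C1qb and -0.0061 to 0.12 for Csf1r. For the interaction it gave -0.75 to 0.047 for C1qb, -0.59 to 0.30 for C1qc, -0.48 to 0.22 for Csf1r, -0.063 to 0.22 for Cd68, -0.66 to 0.84 for Tff2 and -0.41 to 0.040 for Ccr2. The causes of these changes were not tested. Scaling to library totals moved the E16.5 calls over all genes from 560 higher and 399 lower to 779 and 179. DESeq2 called 1550 genes there, against 959. Levels per kb are another unit and were not run as an alternative. No paired analysis was possible because the animals' numbers are not shared between the groups compared. With 3 pancreata a group, 1 embryo can decide a value, and Mrc1, Cd68 and Tyrobp in islets rest on few reads (42 to 174, 58 to 125 and 66 to 150 a library).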

Other observations

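The monocyte receptor gene Ccr2 had KO values above all control values in both tissues. The same held for 15.0% of the genes tested at E16.5 and for 0.781% in islets. In islets it was at 3.64, 2.72, 2.51, 2.82 and 2.26 CPM in control 052, 826, 829, 857 and 858 and at 4.01, 4.43, 6.67, 4.07 and 5.13 CPM in KO 055, 122, 803, 812 and 845. Its log2 fold change there was 0.81 (SE 0.17), with an adjusted p of 0.114 from edgeR and 0.00358 from DESeq2, so the call depends on the tool. Over all genes in islets DESeq2 called 112 and edgeR 22. At E16.5 it passed in 7 of 17 alternatives.

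All 7 MHC class II genes were above 0 at E16.5 with a median of 0.54, and 0 passed with edgeR, against 6.43% of all genes. At an unadjusted p under 0.05 there were 3 of 7, against 25.4%, and groups did not overlap for 2 of 7, against 31.1%. The summed level of the 7 genes was 21.4 to 29.7 CPM in control and 32.3 to 37.3 CPM in KO pancreata. In islets the same sum was 278 to 352 CPM in controls and 263 to 342 CPM in KO animals.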
